A study of Homo sapiens with 6 samples.

Results

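A set of 10 lipid droplet genes was followed in Huh7 hepatoma cells given an siRNA against ASGR1, the gene of the major asialoglycoprotein receptor subunit. They are PLIN2 and PLIN3, which encode droplet coat proteins, PNPLA2, PNPLA3, LIPE and MGLL, which encode lipases or related acyl hydrolases, and ABHD5, HILPDA, G0S2 and CIDEC, which encode proteins that steer lipolysis or droplet size. They were chosen by name, and all 10 members were found by Ensembl ID among the 57905 genes of the deposited table. RNA was sequenced from 3 libraries of siASGR1 cells and 3 libraries of siControl cells, the second transfected with a scrambled siRNA. Both groups were the same established human liver cancer line, grown in the same serum-containing medium and harvested 72 h after transfection. Nothing in the labels says that the replicates were grown as separate cultures, so the p-values compare with a library spread that may be technical only. Levels are FPKM, fragment numbers scaled to exon length and library depth, and can therefore be compared between genes.

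Hepatocytes store fatty acids as triglyceride in droplets enclosed by a phospholipid layer and a coat of perilipins. Droplet triglyceride is broken down stepwise: adipose triglyceride lipase (ATGL, encoded by PNPLA2) removes the first fatty acid and acts with its coactivator ABHD5, hormone-sensitive lipase (encoded by LIPE) acts mainly on diglyceride, and monoglyceride lipase (encoded by MGLL) removes the last fatty acid. The small proteins G0S2 and HILPDA bind and inhibit ATGL, and CIDEC promotes the fusion of droplets.

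The clearest differences were in a coat gene and in an inhibitor of ATGL: PLIN2 was 2.19-fold and HILPDA 1.94-fold higher in siASGR1 cells, while PNPLA2 itself did not pass the test. ABHD5, the coactivator of that lipase, was 1.37-fold lower in siASGR1 cells, where 25.6% of tested genes had a lower log2 fold change. G0S2, another inhibitor of ATGL, was 1.66-fold lower in mean FPKM, opposite in direction to HILPDA. PLIN2 became the most abundant of the 10 genes in siASGR1 cells, whereas PLIN3 was in siControl cells. Whether PLIN3, PNPLA2, PNPLA3, MGLL and G0S2 passed the test rested on the scaling of the libraries or on single libraries.

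Promoter sequence was at hand in RefSeq (GRCh38.p14) for 7 members, of which 4 have a single listed start. These 4 are shown because they have a single listed start, and they include the coat genes PLIN2 and PLIN3, whose ratio is compared. The PLIN2 window lies inside the gene span annotated in GENCODE v29 (19108375 to 19149290, minus strand). The PLIN3 and PNPLA2 windows run partly into their spans, with annotated 5′ ends at 4867768 (minus strand) and 818902 (plus strand). The G0S2 window ends short of its span, which begins at 209675420. The listed starts are therefore not the annotated 5′ ends of these genes. Each line gives the 250 bases before the start, 5′ to 3′ on the gene's own strand. Capitals mark CACGTG (the E-box), ACGTG (the core of the hypoxia response element) and AGGTCA (a half-site of nuclear receptors), each searched on both strands.
PLIN2 (chr9:19127493-19127742, minus strand): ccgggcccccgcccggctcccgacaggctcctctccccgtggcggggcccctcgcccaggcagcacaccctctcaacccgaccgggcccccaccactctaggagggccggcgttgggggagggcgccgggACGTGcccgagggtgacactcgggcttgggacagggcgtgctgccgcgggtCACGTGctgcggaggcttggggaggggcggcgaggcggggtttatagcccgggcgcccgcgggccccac
PLIN3 (chr19:4867668-4867917, minus strand): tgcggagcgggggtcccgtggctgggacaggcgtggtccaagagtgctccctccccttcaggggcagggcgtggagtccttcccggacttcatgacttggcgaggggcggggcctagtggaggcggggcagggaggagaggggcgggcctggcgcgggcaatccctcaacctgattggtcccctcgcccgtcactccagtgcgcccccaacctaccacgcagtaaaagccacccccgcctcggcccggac
PNPLA2 (chr11:818664-818913, plus strand): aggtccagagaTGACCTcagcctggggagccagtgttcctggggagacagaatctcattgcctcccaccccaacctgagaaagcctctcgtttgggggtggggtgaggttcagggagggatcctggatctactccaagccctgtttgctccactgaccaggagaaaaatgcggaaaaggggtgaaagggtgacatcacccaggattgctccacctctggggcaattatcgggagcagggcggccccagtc
G0S2 (chr1:209675162-209675411, plus strand): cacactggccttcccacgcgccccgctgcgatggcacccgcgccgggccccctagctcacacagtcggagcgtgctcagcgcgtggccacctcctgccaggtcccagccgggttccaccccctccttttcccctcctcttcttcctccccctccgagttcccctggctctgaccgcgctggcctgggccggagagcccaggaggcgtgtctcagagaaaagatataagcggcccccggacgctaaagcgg

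PLIN2 held ACGTG at 3 places when both strands are counted, 2 of them inside 1 CACGTG, which reads the same on both strands and begins 69 bases before the start. The first ACGTG began 120 bases before the start. Of 35116 listed human promoter windows of this length, 6.34% held CACGTG, 18.5% held ACGTG and 12.1% held AGGTCA. PNPLA2 held 1 AGGTCA, read on the opposite strand as TGACCT. PLIN3 and G0S2 held none of these letters in this window, nor did any listed start of ABHD5, CIDEC or LIPE. Direct repeats of the half-site with 1 or 4 bases between were in none of the 7 members' windows and in 0.0171% and 0.0142% of all windows. These matches describe the letters only, and binding of any factor was not measured.

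The siRNA target gives the background to every comparison. In the table of the whole series, ASGR1 was at 4.60, 4.82 and 4.71 FPKM in siASGR1 libraries, against 17.5, 17.6 and 16.9 FPKM in siControl libraries. In the files of single libraries the siASGR1 values were 14.7, 15.8 and 14.0 FPKM, so the size of the knockdown rests on the source used. No other gene differed between the sources, and the members' values were identical. Depth recovered from the steps between low FPKM values was 18447667 to 19287128 fragments in siASGR1 libraries and 16312602 to 19258219 in siControl libraries. The 10 hepatocyte markers examined were all higher in siASGR1 libraries, with a summed level of 4606 to 4979 FPKM, against 1916 to 1986 FPKM in siControl libraries. Of the 8 adipocyte markers, LPL was listed at 0 in all 6 libraries and ADIPOQ, LEP, FABP4 and CIDEA stayed at or below 0.09 FPKM. The summed adipocyte level of 21.3 to 23.0 FPKM in siASGR1 and 28.2 to 30.9 FPKM in siControl libraries was mostly PPARG. The 6 macrophage markers summed to 1.64 to 1.94 FPKM in siASGR1 libraries and 1.38 to 2.28 FPKM in siControl libraries. Of the 7 fibroblast markers, 5 were lower in every siASGR1 library, among them COL1A1 at 0.02 to 0.03 FPKM in siASGR1 and 2.05 to 2.77 FPKM in siControl libraries. PDGFRA was higher, at 10.4 to 11.5 FPKM in siASGR1 and 4.4 to 4.58 FPKM in siControl libraries, and made up most of a summed level of 11.0 to 12.3 FPKM in siASGR1 libraries, against 10.1 to 11.0 FPKM in siControl libraries. The part of these shifts in the members' values was not tested.

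Tests were limma fits over 13568 genes on log2(FPKM + 1), with genes called at a Benjamini-Hochberg adjusted p under 0.05. Of the 10 members, 9 passed the filter on low values, and LIPE did not. Of the tested members, 3 were called higher in siASGR1 cells (PLIN2, HILPDA and PNPLA3), where 20.9% of all tested genes were. A further 3 were called lower (ABHD5, MGLL and G0S2), where 40.4% of all tested genes were. With 61.3% of all genes called in one direction or the other, these counts say nothing particular about droplet genes. By their single values, the groups did not overlap in 6 of the 9 tested members, where they did not overlap in 67.3% of all tested genes. In 3 the siASGR1 libraries lay above (23.5% of all tested genes) and in 3 below (43.8%).

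The median log2 fold change was 0.10 over the 9 tested members and -0.13 over all tested genes. Scaling the libraries by median-of-ratios factors moved the median of all genes by 0.13 to -0.01, and 5 members were then called higher and 1 lower, where 29.9% and 28.9% of all genes were.

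**Figure D1:**
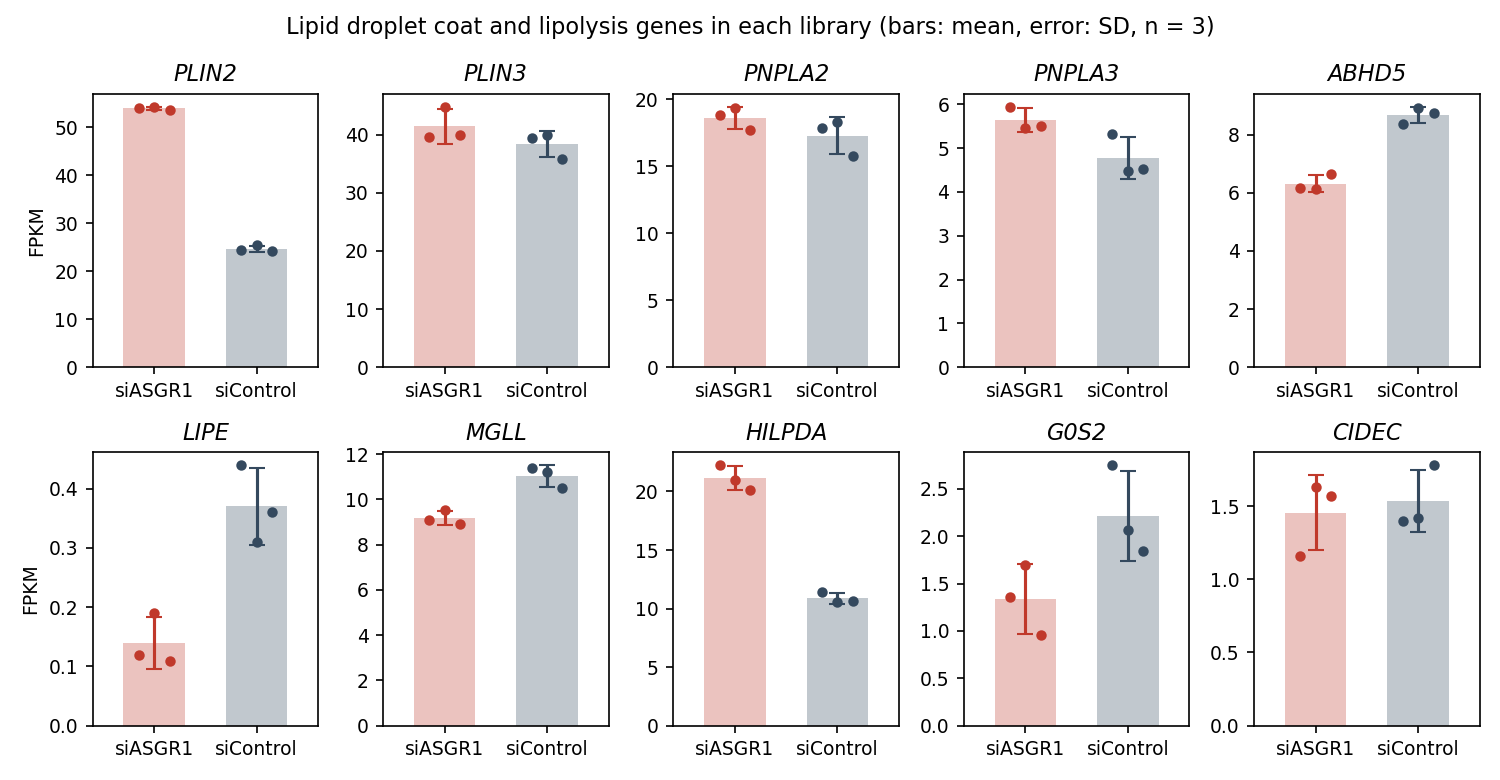
FPKM of the 10 members in each of the 3 siASGR1 libraries (red) and 3 siControl libraries (grey-blue); points are libraries, bars means and error bars SD. PLIN2 and HILPDA stand apart between the groups with little spread, ABHD5 is lower in all siASGR1 libraries, and the libraries of PLIN3, PNPLA2 and CIDEC overlap.

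Among the coat genes, PLIN2 (ENSG00000147872; GRCh38 chromosome 9, 19108375 to 19149290, minus strand) encodes adipophilin, the perilipin that coats droplets in most cell types and is degraded when not bound to one. PLIN2 was at 54.1, 54.3 and 53.6 FPKM in siASGR1 replicates 1, 2 and 3, against 24.5, 25.4 and 24.2 FPKM in siControl replicates 1, 2 and 3. Every siASGR1 library was above every siControl library, and the libraries within each group lay close together. The mean was 54.0 ± 0.39 FPKM in siASGR1 and 24.7 ± 0.65 FPKM in siControl cells (SD, n = 3 each). The log2 fold change was 1.10 (SE 0.04, limma adjusted p = 2.34e-06), or 1.23 above the median of all tested genes, and only 1.48% of tested genes had a greater value. It rested on about 5097 to 5254 fragments in siASGR1 libraries and 2006 to 2396 in siControl libraries. In bulk RNA, a change in the number of cells with a transcript and a change in its amount per cell cannot be told apart, here or for the other members.

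PLIN3 (ENSG00000105355; GRCh38 chromosome 19, 4838341 to 4867768, minus strand) encodes TIP47, a perilipin that is stable in the cytosol and moves to newly formed droplets. PLIN3 was at 39.5, 44.8 and 39.9 FPKM in siASGR1 libraries, against 39.5, 39.9 and 35.9 FPKM in siControl libraries. The groups overlapped, with the highest value in siASGR1 replicate 2 and the lowest in siControl replicate 3. The log2 fold change of 0.11 (SE 0.06) did not pass the test (limma adjusted p = 0.194). With median-of-ratios scaling it was 0.25 and passed (adjusted p = 0.0174). An antisense gene shares exon bases with PLIN3 and was at 0 FPKM in siASGR1 and 0.10 FPKM in siControl cells on average.

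The balance of these coat transcripts does not depend on library scaling, because both are measured in the same library. The ratio of PLIN2 to PLIN3 was 1.37, 1.21 and 1.34 in siASGR1 libraries, against 0.620, 0.638 and 0.674 in siControl libraries. The groups did not overlap, and the difference in log2 ratio was 1.02 (exact two-sided permutation test p = 0.1, which is the smallest that 3 against 3 libraries allow). The same smallest p of 0.1 was reached by all 5 ratios computed, and was 0.1 after Benjamini-Hochberg adjustment over them. Each ratio set a called member against one not called, and most of them share PNPLA2, so they are not separate results. The 5 perilipin transcripts summed to 95.2 to 101 FPKM in siASGR1 libraries and 61.6 to 67.4 FPKM in siControl libraries. PLIN2 made up 55.6 ± 1.57% of that sum in siASGR1 and 38.1 ± 1.01% in siControl cells, and PLIN3 42.6 ± 1.59% and 59.2 ± 1.02% (SD, n = 3 each). PLIN4 supplied 1.29 ± 0.05% in siASGR1 and 2.19 ± 0.26% in siControl cells. PLIN1 and PLIN5, the perilipins of adipocytes and of oxidative tissues, supplied 0.21 ± 0.03% and 0.26 ± 0.08% in siASGR1 and 0.38 ± 0.21% and 0.17 ± 0.06% in siControl cells.

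Of the lipase genes, PNPLA2 (ENSG00000177666; GRCh38 chromosome 11, 818902 to 825573, plus strand) was at 18.8, 19.3 and 17.7 FPKM in siASGR1 libraries, against 17.8, 18.3 and 15.7 FPKM in siControl libraries. The groups overlapped, since siControl replicates 1 and 2 lay above siASGR1 replicate 3. The log2 fold change of 0.10 (SE 0.07) did not pass the test (limma adjusted p = 0.21). Median-of-ratios scaling gave 0.25, which passed (adjusted p = 0.0188). An antisense gene that shares exon bases with PNPLA2 was at 0 FPKM in siASGR1 and 0.09 FPKM in siControl cells on average.

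PNPLA3 (ENSG00000100344; GRCh38 chromosome 22, 43923739 to 43964488, plus strand) encodes adiponutrin, a droplet protein of the same patatin-like family that binds ABHD5. PNPLA3 was at 5.95, 5.47 and 5.51 FPKM in siASGR1 libraries, against 5.33, 4.47 and 4.53 FPKM in siControl libraries. The groups did not overlap, but siControl replicate 1 lay just below the lowest siASGR1 library. PNPLA3 rose 1.18-fold (log2 fold change 0.20, SE 0.07, limma adjusted p = 0.0435). The call was lost when any of siASGR1 replicates 1, 2 and 3 or siControl replicates 2 and 3 was left out (adjusted p = 0.129, 0.0656, 0.0788, 0.128 and 0.113). Testing unfiltered genes lost it as well (adjusted p = 0.098). The value was larger with median-of-ratios scaling (0.33, adjusted p = 0.00614) and with quantile normalization (0.36, adjusted p = 0.00438). PNPLA3 shares 111 bases of an exon with SAMM50 on the same strand, which was at 7.96 FPKM in siASGR1 and 5.77 FPKM in siControl cells, so its reads may be split between the genes.

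LIPE (ENSG00000079435; GRCh38 chromosome 19, 42401507 to 42427426, minus strand) was the least abundant member, at 0.12, 0.19 and 0.11 FPKM in siASGR1 libraries, against 0.44, 0.31 and 0.36 FPKM in siControl libraries. All siASGR1 libraries were below all siControl libraries, on about 11 to 18 fragments in siASGR1 and 27 to 44 in siControl libraries. LIPE did not reach 1 FPKM anywhere and was not tested in the main comparison. With no filter on low values its log2 fold change was -0.26 (SE 0.07, limma adjusted p = 0.0319) on a scale that understates changes of low genes. LIPE-AS1 lies on the opposite strand, shares up to 369 bases of an exon with it, and averaged 0.47 FPKM in siASGR1 and 0.76 FPKM in siControl cells. The strand setting of the counting is not given in the sources used here, so reads of LIPE and LIPE-AS1 cannot be told apart.

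MGLL (ENSG00000074416; GRCh38 chromosome 3, 127689062 to 128052190, minus strand) was at 9.11, 9.52 and 8.90 FPKM in siASGR1 libraries, against 11.4, 11.2 and 10.5 FPKM in siControl libraries. Every siASGR1 library lay below every siControl library. MGLL fell 1.20-fold (log2 fold change -0.24, SE 0.05, limma adjusted p = 0.00475), which is 0.11 below the median of all tested genes. The call was lost with median-of-ratios scaling (log2 fold change -0.10, adjusted p = 0.141) and with quantile normalization (-0.14, adjusted p = 0.0558). Set against PNPLA2 within a library, MGLL stood at a ratio of 0.484, 0.493 and 0.504 in siASGR1 libraries, against 0.640, 0.613 and 0.667 in siControl libraries. The ratios did not overlap between the groups (difference in log2 ratio -0.37, exact permutation p = 0.1).

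**Figure D2:**
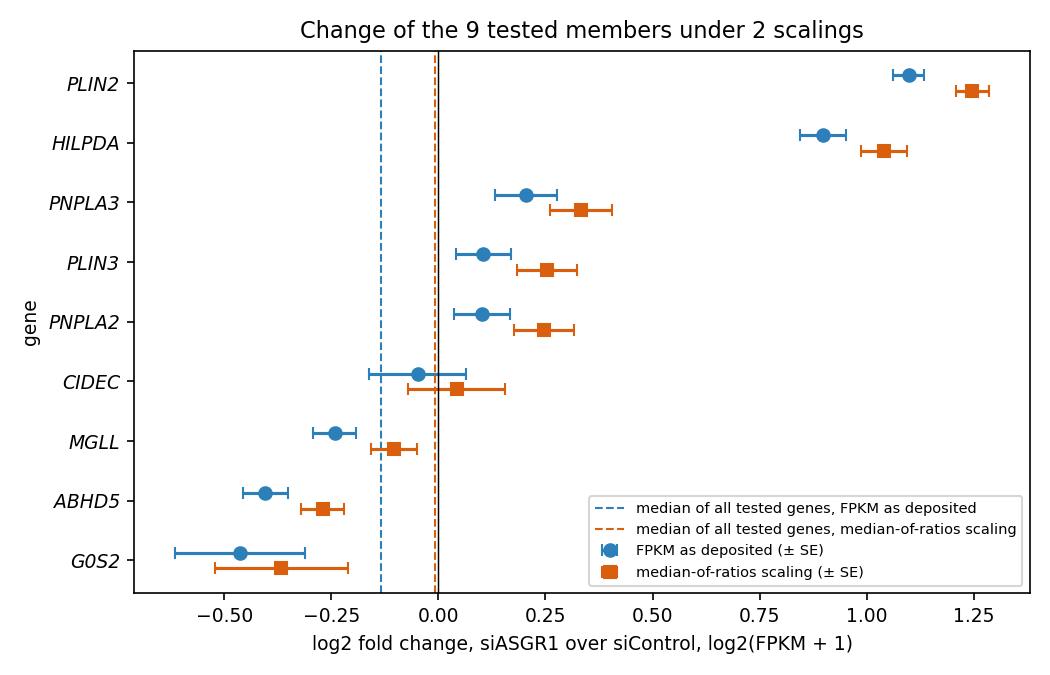
Log2 fold change of siASGR1 over siControl on the log2(FPKM + 1) scale for the 9 tested members, with values as deposited (blue circles) and after median-of-ratios scaling (orange squares); bars are SE and dashed lines the median of all tested genes under each scaling. PLIN2, HILPDA and ABHD5 lie clear of 0 under both scalings, while PLIN3, PNPLA2, MGLL and G0S2 change their side of the test's threshold.

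Among the regulators, HILPDA (ENSG00000135245; GRCh38 chromosome 7, 128455849 to 128458418, plus strand) encodes a small droplet protein that is induced by hypoxia and by fatty acids and that inhibits ATGL. HILPDA was at 22.3, 21.0 and 20.2 FPKM in siASGR1 libraries, against 11.4, 10.6 and 10.7 FPKM in siControl libraries. Every siASGR1 library was above every siControl library by far more than the spread within either group. HILPDA rose 1.94-fold (log2 fold change 0.90, SE 0.05, limma adjusted p = 1.50e-05), which is 1.03 above the median of all tested genes, and 2.55% of tested genes had a greater value. It was called under all 15 alternative settings, as was PLIN2, though some of these settings leave the log2 fold change unaltered by design. HILPDA-AS1, annotated on the same strand despite its name, shares 99 exon bases with HILPDA. It moved the other way, with a mean of 1.26 FPKM in siASGR1 and 2.66 FPKM in siControl cells. Another gene on that strand (ENSG00000273184) shares 133 exon bases and averaged 0.02 FPKM in siASGR1 and 0.06 FPKM in siControl cells. Reads of HILPDA may be split with these genes.

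The ratio of PNPLA2 to HILPDA, a lipase transcript against that of its inhibitor, was 0.845, 0.919 and 0.876 in siASGR1 libraries, against 1.56, 1.73 and 1.48 in siControl libraries. PNPLA2 was therefore the more abundant transcript in all siControl libraries and HILPDA in all siASGR1 libraries (difference in log2 ratio -0.85, exact permutation p = 0.1). Neither protein amounts nor lipase activity were measured.

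ABHD5 (ENSG00000011198; GRCh38 chromosome 3, 43690108 to 43734371, plus strand), also known as CGI-58, was at 6.17, 6.14 and 6.65 FPKM in siASGR1 libraries, against 8.37, 8.93 and 8.75 FPKM in siControl libraries. Every siASGR1 library was below every siControl library by more than the spread within either group. ABHD5 fell 1.37-fold (log2 fold change -0.40, SE 0.05, limma adjusted p = 0.000455), which is 0.27 below the median of all tested genes. A fall of this size was common, since 25.6% of tested genes had a lower value. It was called lower under all 15 alternative settings, with values of -0.46 to -0.27, though some of these leave the value unaltered by design. ABHD5 shares up to 170 exon bases with ANO10 on the opposite strand, which was at 9.78 FPKM in siASGR1 and 13.5 FPKM in siControl cells, so part of its reads cannot be assigned with certainty. The ratio of PNPLA2 to ABHD5 was 3.05, 3.15 and 2.66 in siASGR1 libraries, against 2.13, 2.05 and 1.80 in siControl libraries. The groups did not overlap in this ratio (difference in log2 ratio 0.57, exact permutation p = 0.1).

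G0S2 (ENSG00000123689; GRCh38 chromosome 1, 209675420 to 209676388, plus strand) was at 1.36, 1.69 and 0.96 FPKM in siASGR1 libraries, against 2.75, 2.06 and 1.84 FPKM in siControl libraries. The groups did not overlap, but siASGR1 replicate 2 and siControl replicate 3 lay close to each other. G0S2 fell 1.66-fold in mean FPKM (log2 fold change -0.46, SE 0.15, limma adjusted p = 0.0314). The pseudocount of 1 shrinks the log2 fold change of so low a gene, which was -0.70 with a pseudocount of 0.1 (adjusted p = 0.0335) and -0.76 with limma-voom on rebuilt reads (adjusted p = 0.038). The short gene rested on about 16 to 27 fragments in siASGR1 and 26 to 46 in siControl libraries. The call was lost without siASGR1 replicate 1 or 3 or siControl replicate 1 or 2 (adjusted p = 0.0651, 0.0897, 0.0953 and 0.0564). Nor did it hold after median-of-ratios scaling (adjusted p = 0.0775), quantile normalization (adjusted p = 0.202) or no filter (adjusted p = 0.0962).

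CIDEC (ENSG00000187288; GRCh38 chromosome 3, 9866711 to 9880254, minus strand) encodes the fat-specific protein FSP27. CIDEC was at 1.16, 1.63 and 1.57 FPKM in siASGR1 libraries, against 1.40, 1.42 and 1.78 FPKM in siControl libraries. The groups overlapped and the log2 fold change was -0.05 (SE 0.11, limma adjusted p = 0.731), and changed sign under median-of-ratios scaling (0.043) and without siASGR1 replicate 1 (0.041) or siControl replicate 3 (0.02). The pseudogene CIDECP, a copy of CIDEC, averaged 2.76 FPKM in siASGR1 and 6.05 FPKM in siControl cells. Reads could be split between these copies, so the CIDEC values are uncertain.

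**Figure D3:**
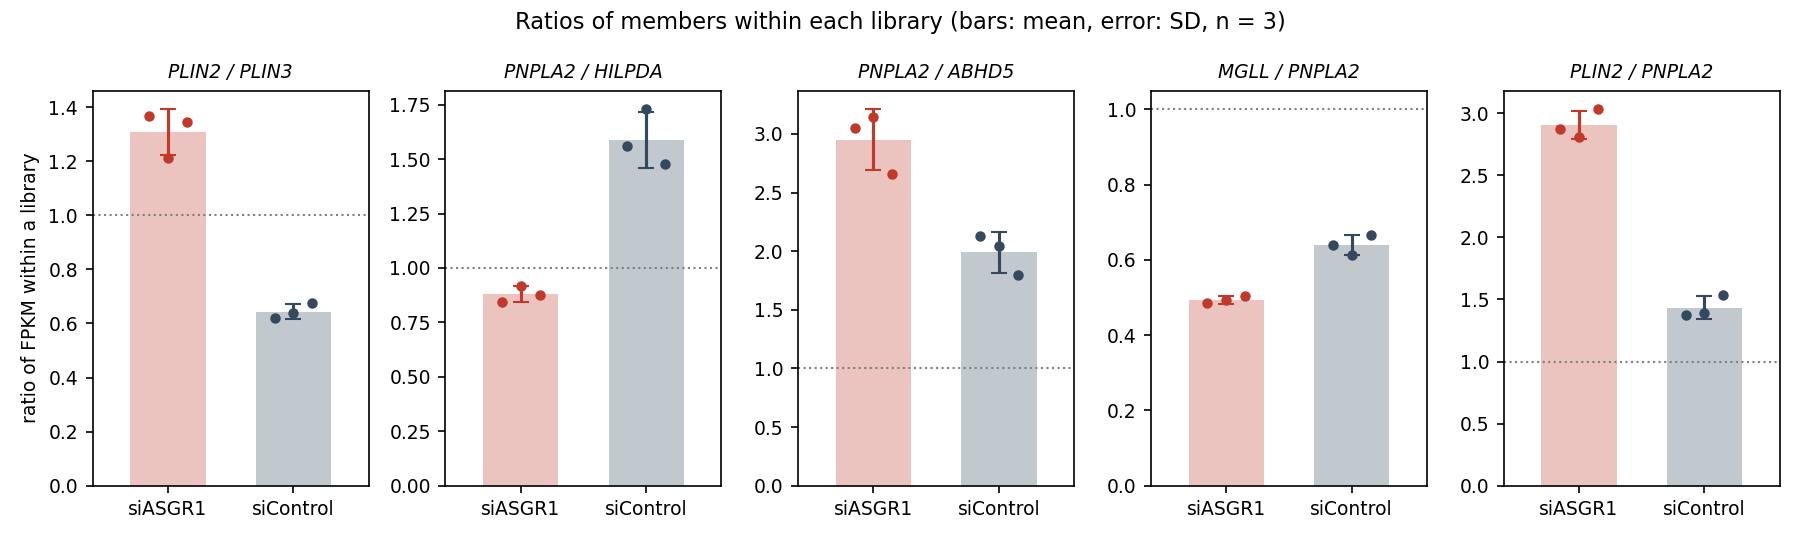
Ratio of FPKM of 2 members within each library, siASGR1 in red and siControl in grey-blue; points are libraries, bars means, error bars SD and the dotted line a ratio of 1. All 5 ratios are free of overlap between the groups, as were the single values of 67.3% of all tested genes. The share of other gene pairs free of overlap was not computed. PLIN2 over PLIN3 and PNPLA2 over HILPDA lie on opposite sides of 1 in the groups.

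The order of levels differed between the groups, with LIPE lowest in both. In siASGR1 cells it ran PLIN2, PLIN3, HILPDA, PNPLA2, MGLL, ABHD5, PNPLA3, CIDEC, G0S2 and LIPE, and only the neighbours CIDEC and G0S2 overlapped between libraries. In siControl cells it ran PLIN3, PLIN2, PNPLA2, MGLL, HILPDA, ABHD5, PNPLA3, G0S2, CIDEC and LIPE, and only MGLL and HILPDA overlapped. PLIN2 exceeded PNPLA2 by a ratio of 2.87, 2.81 and 3.03 in siASGR1 libraries, against 1.37, 1.39 and 1.54 in siControl libraries (difference in log2 ratio 1.02, exact permutation p = 0.1). The ratio of PNPLA2 to G0S2 was not computed, because G0S2 was under 1 FPKM in siASGR1 replicate 3.

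Other droplet coat and surface genes moved both ways. Of 12 tested, 3 were called higher and 3 lower in siASGR1 cells, where 20.9% and 40.4% of all tested genes were. The median log2 fold change was -0.05, against -0.13 over all tested genes. TMT1B and TMT1A, which encode droplet-associated methyltransferases, rose 2.63-fold and 1.77-fold. VCP, the segregase ATPase that extracts ubiquitinated proteins from membranes, rose 1.52-fold. RAB18, a droplet-bound small GTPase, fell to 11.4 ± 0.81 FPKM in siASGR1 cells, against 21.7 ± 1.49 FPKM in siControl cells (SD, n = 3 each; limma adjusted p = 4.63e-05). With median-of-ratios scaling 6 genes were higher and 3 lower, where 29.9% and 28.9% of all tested genes were. These shares of all tested genes, as deposited and rescaled, also apply to the counts of the lists that follow.

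Genes of droplet assembly and triglyceride esterification were called higher in 7 and lower in 7 of 18 tested, with a median log2 fold change of -0.10. FITM2, whose product in the endoplasmic reticulum aids the budding of droplets, was at 4.71 ± 0.22 FPKM in siASGR1 and 10.2 ± 0.35 FPKM in siControl cells, 2.16-fold lower (limma adjusted p = 1.16e-05). GPAT4, a glycerol-3-phosphate acyltransferase gene, was 1.61-fold lower. MOGAT3, a monoacylglycerol acyltransferase gene, rose 3.47-fold and ACSL3, a droplet-bound acyl-CoA synthetase gene, 1.60-fold. LDAF1, which encodes the partner of seipin in droplet formation and was named after its values were seen, was at 0.89 ± 0.04 FPKM in siASGR1 and 3.59 ± 0.46 FPKM in siControl cells (SD, n = 3 each).

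Of 14 other neutral lipid hydrolase genes tested, 2 were higher and 4 lower, with a median log2 fold change of -0.03. AADAC, an arylacetamide deacetylase gene, was at 8.92 ± 0.77 FPKM in siASGR1 and 2.09 ± 0.23 FPKM in siControl cells (limma adjusted p = 7.67e-06), and the hepatic lipase gene LIPC rose 1.66-fold. NCEH1, a cholesteryl ester hydrolase gene, was 2.15-fold lower, and ABHD4, a lysophospholipase gene, 1.68-fold lower. LIPA, which encodes the acid lipase of lysosomes and was named after its values were seen, did not pass (adjusted p = 0.126). With median-of-ratios scaling 6 genes were higher and 4 lower.

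The cAMP and protein kinase A genes that control lipolysis in hormone-responsive cells were called higher in 6 and lower in 6 of 17 tested, with a median log2 fold change of -0.06. ADCY3, an adenylyl cyclase gene, was 1.97-fold and GNAI1, an inhibitory G protein gene, 1.37-fold lower. The regulatory subunit gene PRKAR1B rose 2.33-fold and the phosphodiesterase gene PDE3B 1.80-fold. With median-of-ratios scaling 8 genes were higher and 3 lower.

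Fatty acid and glycerol carriers were called higher in 4 and lower in 6 of 11 tested, with a median log2 fold change of -0.26. DBI, the acyl-CoA binding protein gene, rose 1.54-fold, while ACBD3, AQP3 and GK, which encode a Golgi acyl-CoA binding domain protein, an aquaglyceroporin and glycerol kinase, were 1.77-fold, 1.96-fold and 1.72-fold lower. Of 18 transcription factor genes known to act on members, 6 were higher and 9 lower, with a median of -0.14. SREBF1, NR1H3 and NFE2L1 rose 4.75-fold, 2.31-fold and 1.42-fold. PPARA, whose product induces PLIN2 and other fatty acid-responsive genes, was at 9.76 ± 0.30 FPKM in siASGR1 and 14.8 ± 0.22 FPKM in siControl cells (limma adjusted p = 4.37e-05). The part of any factor of this list in the members' values was not tested. The hypoxia factor genes HIF1A and EPAS1, named after their values were seen, went apart: HIF1A was 1.41-fold lower and EPAS1 1.40-fold higher in siASGR1 cells.

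**Figure D4:**
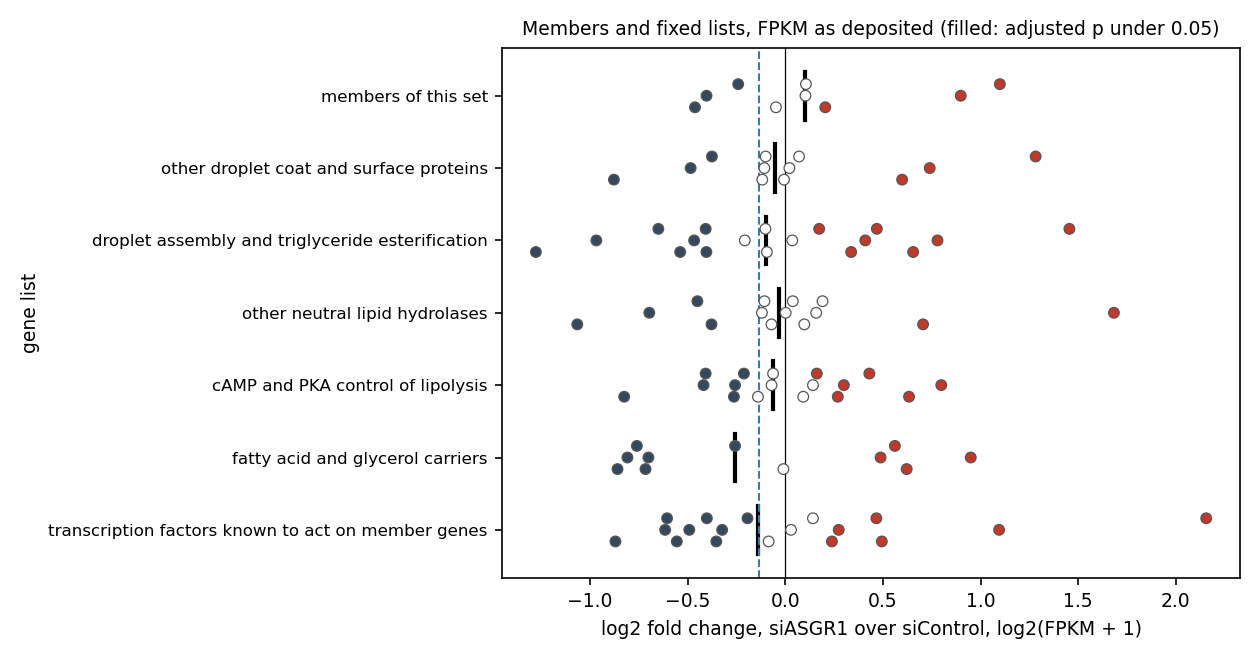
Log2 fold change of siASGR1 over siControl on the log2(FPKM + 1) scale for each tested gene of the droplet set and of 6 fixed lists; filled points passed the test (red higher, grey-blue lower), black bars are list medians and the dashed line is the median of all tested genes at -0.13. Every list holds both higher and lower genes. The medians of the 6 fixed lists lie between -0.26 and -0.03, and that of the members is 0.10.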

How the data were processed

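RNA of 6 Huh7 libraries was sequenced. The submitters' processing notes name HISAT2 2.0.1, cutadapt 1.9.1, bcl2fastq 2.17.1.14 and the build hg19. How fragments were counted, with which annotation and strand setting, is not given in the sources used here. Deposited values are FPKM with 2 decimals, made by the authors, per the file headers, even though the series table bears the name of raw counts. Symbols were matched for 51996 of 57905 IDs. Coordinates and exon lengths are those of GENCODE v29 on GRCh38, not of hg19.

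Genes with at least 1 FPKM in at least 3 libraries were tested with limma 3.58.1 (R 4.3.3) on log2(FPKM + 1), two-sided, with a variance prior that follows the level. The fit was also run on simulated data in which only a small part of the genes changed. That run does not cover the dependence on library scaling seen here. Depth was taken as the value that made low FPKM of genes with exon lengths of 200 to 1000 bases whole reads: within 0.15 reads, 96.8% to 97.5% of values came out whole, against 24.7% to 26.2% at a typical wrong depth. The depth was fitted to that share, and fragment numbers cover counting error only. Exons of other genes overlapping members were looked up in GENCODE v29.

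The members, the 6 lists and the ratios were chosen with earlier results of these data known. All members are named, and of each list up to 4 called genes with the smallest adjusted p. No pair of libraries agreed within sampling noise (chi-square over degrees of freedom 2.49 to 5.20 within groups). Exact permutation tests of ratios used scipy 1.17.1 under Python 3.11.15.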

Additional observations from a re-analysis of the deposited data

How the results depend on the processing

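PLIN2 (log2 fold change 1.06 to 1.25), HILPDA (0.86 to 1.04) and ABHD5 (-0.46 to -0.27) kept their direction and call under all 15 alternatives. Those that can alter the log2 fold change were 2 other scalings, a pseudocount of 0.1, limma-voom on rebuilt reads and leaving out each library. No filter or one at 5 FPKM, a prior without trend and a replicate block left it the same and altered only the test. The files of single libraries hold the same values of the members, so for them that alternative nearly repeats the main fit. Median-of-ratios scaling gave 5 members higher and 1 lower in place of 3 and 3, with PLIN3 at 0.25 and PNPLA2 at 0.25 now called and MGLL at -0.10 and G0S2 at -0.37 no longer called. It gave 6 higher among other coat genes, 6 higher among other hydrolases and 3 lower among cAMP genes, where 3, 2 and 6 were called as deposited. Quantile normalization gave 1 member lower, with MGLL at -0.14 and G0S2 at -0.26 not called, and 5 hydrolases higher. Of all 13568 tested genes, 3890 were then called higher and 4015 lower, where 2839 and 5480 were as deposited. CIDEC changed sign under both scalings (0.043 and 0.16). Without a filter, PNPLA3 at 0.20 and G0S2 at -0.46 missed the threshold. A filter at 5 FPKM left 7829 of 13568 genes to test. Of those, 2196 were called higher and 3382 lower, where 2839 and 5480 were in the main fit. Of the cAMP genes, 3 in place of 6 were called higher, since fewer genes were tested. For the other changes the cause was not tested.

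Leaving out each library gave 0.17 to 0.27 for PNPLA3 (called in 1 of 6), -0.57 to -0.34 for G0S2 (called in 2 of 6) and -0.10 to 0.041 for CIDEC (called in 0 of 6). The labels do not say whether equal replicate numbers mark a shared batch. Deviations of same-numbered libraries correlated at -0.02, 0.002 and 0.01, which cannot exclude such a batch with 3 libraries per group. With the replicate block 3 members were called higher and 3 lower, as without it, and 2761 genes higher and 5303 lower, where 2839 and 5480 were without it. G0S2, CIDEC and LIPE rested on few fragments, which limits what can be seen of them.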
